A study of Mus musculus with 6 samples.

Results

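The genes described here make, break down or sense nucleotides and adenosine, many of them at the cell surface. Their transcripts were followed in the mouse thyroid after deletion of Foxe1, the forkhead factor of thyroid follicular cells. Transcripts do not show whether an enzyme such as adenosine deaminase acts inside or outside the cell. The list was drawn up by function, holds 10 genes and was selected on the measured knockout against control differences of Ada and Enpp3 as its starting point. It has 6 ectoenzymes (Entpd1, Entpd3, Enpp1, Enpp2, Enpp3 and Nt5e), the adenosine deaminase gene Ada and the adenosine receptor genes Adora1, Adora2a and Adora2b. Only 5 of the 10 could be measured, Entpd1, Entpd3, Enpp3, Nt5e and Ada, out of 19505 genes named on the array. Enpp1, Enpp2 and the 3 receptors were matched to no named probe set and are not analysed here. Each measured gene had 1 probe set, so the rule of taking the brightest probe set made no choice among them. Ada and Enpp3 were known to differ on these arrays when the list was made, so their differences are given as a description of the genes chosen and support nothing beyond themselves.

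The study compared 3 Foxe1flox/flox/Cre mice, called knockouts here, with 3 Cre control mice, all of C57BL/6J background. Animals of both groups carried Cre and received tamoxifen at 0.05 g/kg into the abdomen on each of 5 days, starting at 6 to 8 weeks of age, and the gland was collected 2 weeks after treatment. A single array was made per animal from the RNA of 1 lobe. Which promoter drives Cre is not given in the labels.

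ATP that leaves a cell is cut stepwise at the cell surface: enzymes of the Entpd family remove phosphates down to AMP, enzymes of the Enpp family cut ATP directly to AMP and pyrophosphate, and Nt5e (CD73) turns AMP into adenosine. Adenosine then acts on its receptors, is taken back into cells by transporters, or is converted to inosine by adenosine deaminase. ATP and other nucleotides are themselves signals for the P2X channels and the P2Y receptors, and in thyroid cells purine receptors are known to be coupled to calcium signalling.

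Foxe1 was low on the 3 knockout arrays, at 3.33, 2.88 and 3.04 on the log2 scale, and read 7.60, 7.19 and 7.04 in the controls, so the targeted transcript went with the labels. Array medians lay between 5.62 and 5.69. Thyroglobulin, Tg, which defines the follicular cell, averaged 18.95 ± 0.30 over the controls and 19.00 ± 0.25 over the knockouts (SD, n = 3 each). Its readings were between the 99.8th and the 99.9th percentile of their arrays, and the highest deposited value was 19.93. A difference in Tg may therefore be compressed from above. Of 12 follicular markers 10 were measured, 9 with positive differences and a list median of 1.19. For 6 of them every knockout lay above every control, as for 9.28% of all probe sets. The homeobox gene Hhex passed the threshold, an adjusted p of 0.05 over all probe sets, upward (2.46, limma adjusted p = 0.0273) and Foxe1 downward. Slc5a5 differed by 4.83, Iyd by 2.10, Tshr by 1.75, Pax8 by 1.52, Dio1 by 0.86 and Nkx2-1 by 0.73, none past the threshold. Slc26a4 (0.41), which is 1 of the 6, lay below the lower quartile on every array, so its readings may be background. Control 3 was the lowest array for Slc5a5, Iyd, Tshr, Pax8, Dio1 and Nkx2-1. For Slc5a5 the controls read 8.00, 8.00 and 2.97, the last at the 10.5th percentile of its array. The difference of 4.83 thus leans on 1 control reading that may be background. The lobes also held transcripts of other tissue, with the squamous keratin Krt4 at 19.91 and 19.93, the airway gene Bpifa1 at 19.32 and 18.32 and the muscle actin Acta1 at 19.87 and 19.77 in controls and knockouts. Parathyroid hormone, Pth, varied widely, averaging 18.31 ± 1.33 over the controls and 10.74 ± 7.55 over the knockouts (SD over 3 arrays each; limma adjusted p = 0.335). Fibroblast Dcn (-0.26) and adipocyte Fabp4 (-0.38) did not pass the threshold. Control 1 and knockout 3 stood apart by a mean of 4 Y-linked genes of 3.04 and 2.65, against 8.03 to 8.30 on the other 4 arrays. The labels do not state the animals' sex. In whole lobes, fewer cells of a type and less RNA per cell cannot be told apart.

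The start regions of Ada and Enpp3 are shown because these were the measured genes past the threshold, in opposite directions, after loss of a factor that binds DNA. Sequences are from RefSeq (GRCm38.p6), 250 bases before to 50 after the annotated start, and windows were held for 8 of the 10 listed genes and all 5 measured ones. Capitals mark every match, on either strand, to 4 motifs. These were the forkhead consensus, spelled TGTTTAC, the TATA box, spelled TATAAA, the GC box, spelled GGGCGG, and the CCAAT box, spelled by its name. No match overlapped another in these 2 windows.
Ada, chr2:163750190-163750489, minus strand: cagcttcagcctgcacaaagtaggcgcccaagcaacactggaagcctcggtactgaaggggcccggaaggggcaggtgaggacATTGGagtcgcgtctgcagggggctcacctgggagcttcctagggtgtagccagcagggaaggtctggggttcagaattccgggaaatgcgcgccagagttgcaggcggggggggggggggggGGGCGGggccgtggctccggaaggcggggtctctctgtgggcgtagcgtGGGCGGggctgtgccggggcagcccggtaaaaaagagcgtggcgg
Enpp3, chr10:24836146-24836445, minus strand: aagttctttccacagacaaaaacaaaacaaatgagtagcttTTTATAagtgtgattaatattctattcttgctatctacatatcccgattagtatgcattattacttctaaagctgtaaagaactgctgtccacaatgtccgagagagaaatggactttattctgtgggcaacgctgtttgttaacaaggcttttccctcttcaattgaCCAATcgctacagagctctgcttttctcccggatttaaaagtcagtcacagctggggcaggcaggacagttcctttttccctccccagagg
The Ada window was 68% G and C with 20 CpG pairs, and held 2 GC boxes, 1 of them at position -44 from the start, and a CCAAT box on the opposite strand. The Enpp3 window was 40.7% G and C with 5 CpG pairs, and held a CCAAT box at position -41 and a TATA match on the opposite strand at position -209. The medians over 32851 windows of the same length were 52.7% and 7 CpG pairs. Among those windows 35.7% held a GC box, 37.4% a CCAAT box, 13.6% a TATA match and 3.65% the forkhead consensus. The exact letters TGTTTAC were in neither window, nor in those of Entpd1, Entpd3 and Nt5e. Other spellings of the forkhead motif were not searched, so this says only that this 1 spelling is absent from these windows.

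Of the 5 measured genes, Ada was higher in the knockout, Enpp3 was lower, and Entpd1, Entpd3 and Nt5e did not pass the threshold, which was an adjusted p of 0.05 in limma over all probe sets of the array. Over all probe sets 0.338% passed, 0.252% as higher and 0.0856% as lower in the knockout. Since Ada and Enpp3 led to the list, nothing is read from their share of it. The median difference of the 5, knockout minus control, was 0.24 on the log2 scale, against -0.02 over all probe sets.

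**Figure D1:**
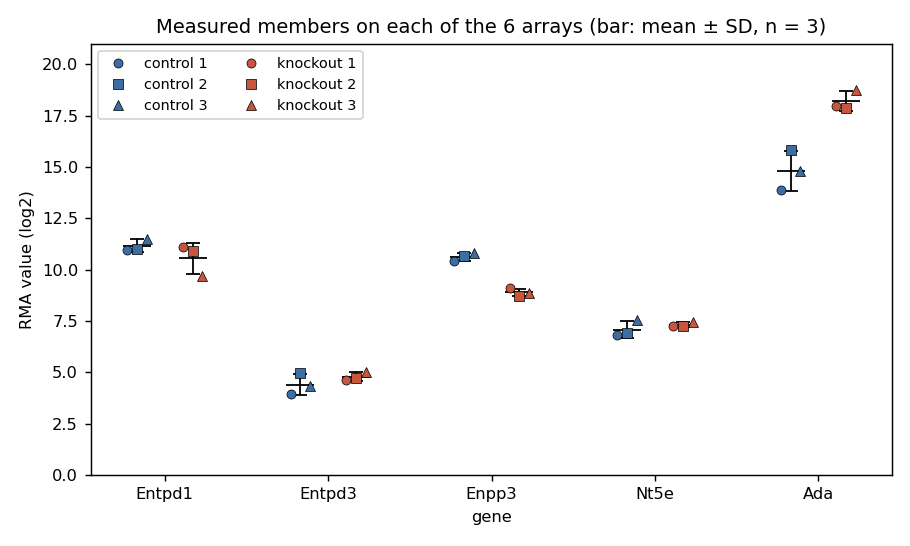
RMA values on the log2 scale of the 5 measured genes on each array, with controls in blue and knockouts in red, marker shapes for the replicate number, and bars for the mean ± SD of 3 arrays. The groups stand apart for Enpp3 and Ada and overlap for Entpd1, Entpd3 and Nt5e, and levels of different genes are not comparable.

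Entpd1 (CD39), which cuts ATP and ADP to AMP on endothelial and immune cells, gave 10.96, 11.00 and 11.51 on the control arrays and 11.09, 10.89 and 9.68 on the knockout arrays. Knockouts 1 and 2 lay at or near the level of the controls, and knockout 3 was lower than every other array. The difference was -0.60 (SE 0.36, 95% interval -1.42 to 0.22, limma adjusted p = 0.541). Without knockout 3 it was -0.17, and without knockout 1 it was -0.87. Markers of cells that carry this enzyme were also lowest on knockout 3. The mean of 6 endothelial genes was 8.52 there and 9.17 to 9.96 on the other arrays. That of 7 macrophage genes was 6.96 there and 7.08 to 8.08 elsewhere. This was not particular to these cells. Knockout 3 was also the lowest array for the means of fibroblast (10.19), skeletal muscle (15.37), airway (13.33), mast cell (5.29) and C cell (4.62) markers. It was not the lowest for follicular, squamous, parathyroid, lymphocyte, adipocyte or erythroid markers. The summed level of the endothelial markers ran from 12.20 to 12.85 in controls and from 11.64 to 13.31 in knockouts, and that of the macrophage markers, 7 of 8 measured, from 11.46 to 12.17 and from 10.57 to 11.83. The brightest of each list, Cdh5 and Mrc1, differed by -0.14 and -0.29. None of these endothelial and macrophage markers lay below the lower quartile on every array, and their part in the Entpd1 values was not tested.

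Entpd3, a relative of Entpd1 that acts on the same substrates, gave 3.93, 4.94 and 4.31 on the control arrays and 4.62, 4.73 and 5.01 on the knockout arrays. The groups overlapped, since control 2 was above knockouts 1 and 2. These readings stood between the 31.2th and the 44.8th percentile of their arrays, where signal and background are hard to tell apart. The difference was 0.39 (SE 0.27, 95% interval -0.22 to 1.01, limma adjusted p = 0.605), and it was 0.16 without control 1 and 0.67 without control 2.

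Enpp3 (CD203c), a membrane enzyme that cuts nucleotides to the monophosphate and is used in humans as a surface marker of basophils and mast cells, gave 10.41, 10.67 and 10.80 on the control arrays and 9.09, 8.73 and 8.86 on the knockout arrays. All 3 knockouts lay below all 3 controls, as they did for 8.78% of all probe sets, and within each group the arrays lay close together. The means were 10.63 ± 0.20 and 8.89 ± 0.18 (SD, n = 3 each), a difference of -1.73 (SE 0.20, 95% interval -2.18 to -1.29), which is 3.32-fold lower in the knockout. Ranked by signed difference, Enpp3 was number 46 from the bottom. The pooled SD of Enpp3 within groups was 0.19, at the 24.3th percentile of all probe sets, whose median was 0.28. The limma adjusted p was 0.025, and 0.284 with an ordinary t statistic that shares no variance between probe sets. Leaving out 1 array left it at 0.0404 without control 1 and took it to between 0.066 and 0.0854 without control 2, control 3, knockout 1, knockout 2 or knockout 3, while the difference stayed between -1.84 and -1.65.

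Markers of airway cells and of mast cells were set beside Enpp3. Of 10 airway and ciliated cell genes 9 were measured, all 9 had negative differences and none passed the threshold. Their summed level ran from 20.19 to 21.14 in controls and from 19.60 to 19.71 in knockouts, without overlap, and the median of their differences was -1.17. Other tissues shared this direction: all measured markers of skeletal muscle (9), fibroblasts (7), adipocytes (6), parathyroid (3), C cells (2) and erythroid cells (2) were also negative. The summed muscle level did not overlap either. The follicular, squamous, mast cell, lymphocyte, macrophage and endothelial lists had differences of both signs. Control 1 had the highest mean of the airway genes, 15.19 against 14.05 and 14.17 in the other controls, while it was the lowest control for Enpp3. Mast cell and basophil genes, 9 of 9 measured, had 6 positive and 3 negative differences with a median of 0.13, and their summed level ran from 10.81 to 10.98 in controls and from 10.68 to 11.74 in knockouts. Cpa3, the mast cell carboxypeptidase and the brightest of them, averaged 9.48 in controls and 10.89 in knockouts, with every knockout above every control (limma adjusted p = 0.261). Tpsb2 also had every knockout above every control (0.81, limma adjusted p = 0.347). Kit, the stem cell factor receptor, averaged 9.56 in controls and 7.96 in knockouts, with every knockout below every control (-1.60, limma adjusted p = 0.101), and was named after its values were seen. The basophil protease Mcpt8 lay below the lower quartile on all arrays. The part of either cell type in the Enpp3 values was not tested.

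Nt5e, which makes adenosine from AMP and sits between the enzymes above and adenosine deaminase, gave 6.79, 6.90 and 7.55 on the control arrays and 7.24, 7.26 and 7.46 on the knockout arrays. The knockouts fell within the range of the controls. The difference was 0.24 (SE 0.24, 95% interval -0.29 to 0.77, limma adjusted p = 0.737), so a rise of up to 0.77 is within the interval. It was 0.10 without control 1, 0.15 without control 2 and 0.47 without control 3.

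Ada, which removes adenosine by turning it into inosine, gave 13.87, 15.81 and 14.79 on the control arrays and 17.98, 17.89 and 18.76 on the knockout arrays. Every knockout lay above every control, as for 9.28% of all probe sets, and the controls spread over a wider range than the knockouts. The means were 14.82 ± 0.97 and 18.21 ± 0.48 (SD, n = 3 each), a difference of 3.39 (SE 0.45, 95% interval 2.35 to 4.42), which is 10.5-fold higher in the knockout. Ranked by signed difference, Ada was number 10 among all probe sets. Its pooled SD within groups was 0.77, at the 98.1th percentile, so it was also among the genes that varied most between animals of a group. The knockout readings were between the 99.7th and the 99.9th percentile of their arrays, and the highest value in the table was 19.93, so the difference may be compressed from above. The limma adjusted p was 0.0273, and 0.392 with the ordinary t statistic. The limma value was 0.0439 without control 1 and 0.0309 without control 2, and lay between 0.0809 and 0.114 without control 3, knockout 1, knockout 2 or knockout 3, with differences from 2.91 to 3.88.

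The size of the Ada difference was not the same on the arrays with and without Y-linked signal. It was 2.64 over the 2 controls and 2 knockouts with that signal (limma adjusted p = 0.102) and 4.89 between control 1 and knockout 3, which lacked it and are 1 array per group. For Enpp3 the values were -1.83 (limma adjusted p = 0.0994) and -1.55. Entpd1 was at -0.26 and -1.28, Entpd3 at 0.05 and 1.08, and Nt5e at 0.03 and 0.67. Each gene kept its sign in both subsets, and whether the subsets differ was not tested.

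In the mouse, Ada is abundant in squamous lining of the upper digestive tract and in the thymus, and markers of both were set beside it. Of 12 squamous genes 11 were measured, 9 had positive differences and none passed the threshold. Their summed level ran from 20.83 to 20.89 in controls and from 21.08 to 21.27 in knockouts, without overlap, and the median of their differences was 0.31. The mean of the squamous genes was lowest in control 1, at 13.57, and highest in knockout 3, at 14.92. Ada was lowest and highest on the same arrays, which are also those without Y-linked signal. The cornified envelope genes of the list were at 3.13 for Sprr1b (limma adjusted p = 0.0624), 1.62 for Lor (limma adjusted p = 0.0665), 1.15 for Sprr3 (limma adjusted p = 0.0907) and -0.25 for Ivl. The desmosomal cadherins Dsc3 and Dsg3 were at 1.10 and 0.77, the basal factor Trp63 at 0.31, and the keratins Krt13, Krt5, Krt4 and Krt14 at 0.16, 0.09, 0.02 and -0.45. Krt4 read up to 19.93, the top of the scale, where it could show no rise. Thymocyte and lymphocyte genes, 7 of 9 measured, were low, with summed levels of 6.62 to 7.28 in controls and 6.66 to 6.84 in knockouts, the brightest, Cd4, differed by -0.40, and the thymocyte receptor gene Ptcra lay below the lower quartile on all arrays. The part of squamous tissue in the Ada values was not tested.

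**Figure D2:**
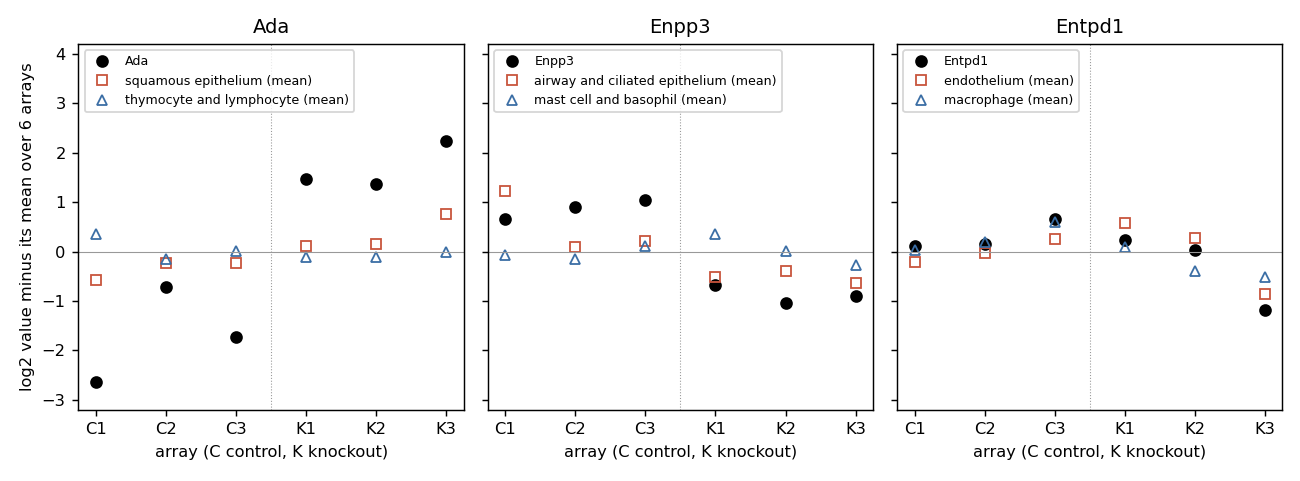
Log2 values of Ada, Enpp3 and Entpd1 on each array as black circles and the mean of marker genes of 2 cell types in each panel as open symbols, each minus its own mean over the 6 arrays (C1 to C3 controls, K1 to K3 knockouts). Squamous markers are lowest in C1 and highest in K3, as Ada is, over a smaller range. C1 and K3 are also the arrays without Y-linked signal. Airway markers are lower in every knockout than in every control, and Entpd1 and the endothelial markers are lowest in K3.

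**Figure D3:**
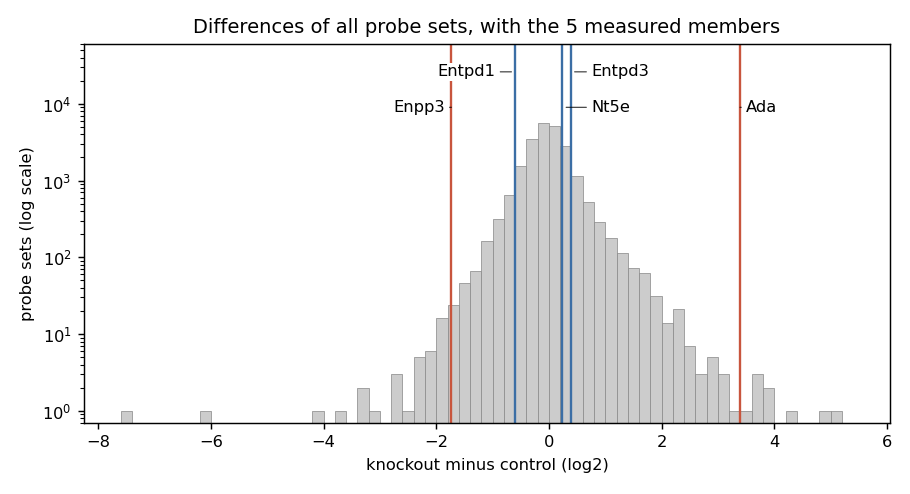
Number of probe sets, on a log axis, by knockout minus control difference in steps of 0.2 log2 units, with vertical lines at the 5 measured genes (red for those past the threshold, blue for the others). Ada at 3.39 and Enpp3 at -1.73 lie in the tails and Entpd1, Entpd3 and Nt5e lie in the body of the distribution.

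Genes next to the members on the chromosome were examined, taking the 3 protein-coding genes on each side in the RefSeq order. Around Ada all 6 were measured and none passed the threshold. The protein kinase inhibitor gene Pkig, on one side, differed by -0.09 and the matricellular gene Ccn5, on the other, by -0.02, and of the genes furthest out Ttpal differed by 1.13 (limma adjusted p = 0.192) and Rims4 by -0.24. Enpp3 lies between Enpp1 and the Mediator subunit gene Med23, which differed by 0.08. Of its remaining neighbours Arg1, the liver-type arginase, differed by 0.17, Akap7 by -0.48, Moxd1 by -0.90 (limma adjusted p = 0.164) and Ccn2, a matrix-associated growth factor gene, by 2.01 (limma adjusted p = 0.115). No measured neighbour of either gene passed the threshold.

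Other genes were taken from 8 lists with 74 genes, of which 68 were measured. The lists cover nucleotide and adenosine handling, except 1 list of lysophosphatidic acid receptors and phosphatases with 8 measured genes. None passed the threshold over all probe sets (smallest limma adjusted p = 0.0525), 34 differences were positive and 34 negative, and the median was -0.01. An unadjusted p under 0.05 was reached by 20 of the 68, or 29.4%, against 12.7% of all probe sets. The groups were apart for 23, or 33.8%, 12 with the knockouts above and 11 with them below, against 18.1% of all probe sets. These shares are not alike, since the 68 are named genes while 2634 of all probe sets carry no name. The lists were also chosen with earlier results of these data known, so nothing is read from the shares.

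**Figure D4:**
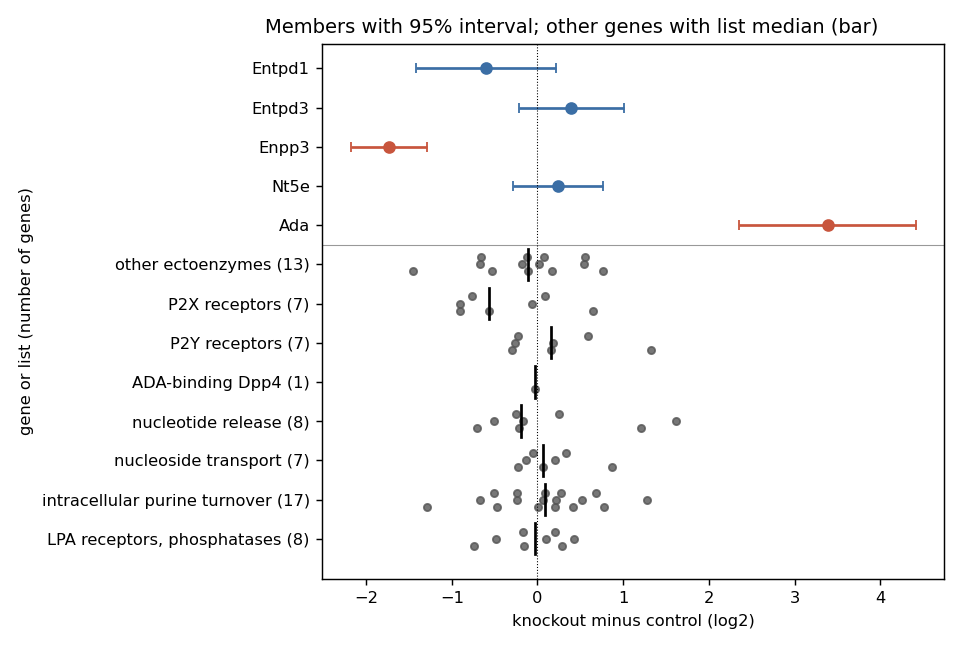
Knockout minus control differences on the log2 scale: the 5 measured genes with 95% intervals (red past the threshold, blue not) and, under the line, 1 point per gene of each list with a vertical bar at the list's median and the number of genes in brackets. The other 68 genes run from -1.45 to 1.62. Ada and Enpp3 lie further from 0, but they were chosen for their differences on these arrays, so nothing is read from this.

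Among 13 other measured genes, mainly of ectonucleotidases and phosphatases but with Art1 and Bst1, the differences ran from -1.45 to 0.77. Entpd4, an enzyme of the Golgi and lysosome and the brightest of them, gave 15.72, 15.40 and 15.40 on the control arrays and 14.08, 14.99 and 13.10 on the knockout arrays, a difference of -1.45 (SE 0.41, limma adjusted p = 0.182). All 3 knockouts were lower. Its second probe set differed by -1.26, and since the mouse has a close copy, Entpd4b, which copy the probes read is uncertain. The knockouts were also below the controls for Enpp4 (-0.53) and the ADP-ribosyltransferase gene Art1 (-0.66), and above them for Entpd5 (0.77), an enzyme of the endoplasmic reticulum, with limma adjusted p of 0.183 or more for these 3.

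No receptor for nucleotides passed the threshold. Of 7 P2X channels, which open on binding ATP, 5 were negative with a list median of -0.57. P2rx4, the brightest, gave 9.34, 9.47 and 8.61 on the control arrays and 8.35, 8.64 and 7.71 on the knockout arrays (limma adjusted p = 0.259), with control 3 just below knockout 2. The knockouts were below all controls for P2rx2, P2rx5 and P2rx6 (-0.57, -0.76 and -0.90), but P2rx2 lay below the lower quartile on 5 of the 6 arrays, so its readings may be background. Of 8 P2Y receptors 7 were measured, and P2ry2, which responds to ATP and UTP and was the brightest, differed by 0.59 (SE 0.28, limma adjusted p = 0.426). P2ry4, also a UTP receptor, had all knockouts above all controls (1.33, limma adjusted p = 0.262), and P2ry13 had them below (-0.26) with all 6 readings under the lower quartile. The gene of Dpp4, a surface protein that binds adenosine deaminase in humans, differed by -0.03 (95% interval -0.65 to 0.59).

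Genes through which nucleotides can leave the cell included 2 connexins with higher readings. Gja1 (connexin 43), the brightest of the 8 measured, gave 14.21, 15.20 and 15.25 on the control arrays and 15.78, 15.99 and 16.53 on the knockout arrays, a difference of 1.21 (SE 0.32, limma adjusted p = 0.161). Gjb2 (connexin 26) differed by 1.62 (SE 0.37, limma adjusted p = 0.117). Control 1 gave the lowest and knockout 3 the highest reading of both. These are the arrays without Y-linked signal. The mean of the squamous markers was also lowest and highest on them, and the part of squamous tissue in the connexin readings was not tested. The channel gene Panx1 differed by -0.17, Panx3 had the knockouts above the controls (0.25) with 5 of 6 readings under the lower quartile, and Slc17a9, the vesicular nucleotide transporter, had them below (-0.71, limma adjusted p = 0.291).

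Transport and breakdown inside the cell were read from 7 transporter genes and 17 enzyme genes. Slc29a3, a nucleoside transporter of lysosomes and the brightest of 7 transporters, gave 11.30, 11.16 and 11.07 on the control arrays and 12.06, 11.91 and 12.16 on the knockout arrays. The groups were well apart, and the difference of 0.87 (SE 0.18) had a limma adjusted p of 0.095. The plasma membrane transporter Slc29a1 differed by -0.23. Adenosine kinase, Adk, which returns adenosine to AMP and so competes with Ada for its substrate, differed by -0.47 (SE 0.22, 95% interval -0.96 to 0.03, limma adjusted p = 0.42). Pnp, which acts on the inosine made by Ada, differed by -0.24 (limma adjusted p = 0.77), and Hprt, which salvages the resulting base, by 0.68 (limma adjusted p = 0.162). Among the 17 enzyme genes every knockout lay above every control for 5, against 9.28% of all probe sets. These were Nt5c3 (1.28), Ampd2 (0.78), Hprt, Aprt (0.41) and Nt5c1a (0.22). Every knockout lay below every control for 3, Ampd1, Ak1 and Gda (-0.51), against 8.78% of all probe sets. None of the 17 passed the threshold.

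Ampd1, the AMP deaminase of skeletal muscle, came closest to the threshold. It gave 10.31, 10.31 and 10.65 on the control arrays and 9.27, 9.31 and 8.83 on the knockout arrays, all lower, with a difference of -1.29 (SE 0.21, limma adjusted p = 0.0525). It was chosen after its values were seen, and it passed under some other settings, where its limma adjusted p was as low as 0.0419. It passed in 0 of the 6 fits that left out 1 array, with limma adjusted p from 0.1 to 0.148. The adenylate kinase gene Ak1, also abundant in muscle and the brightest of the 17 intracellular genes, differed by -0.67 (limma adjusted p = 0.307). Skeletal muscle markers, 9 of 9 measured, were all negative with a median of -0.51, and their summed level ran from 21.18 to 21.27 in controls and from 20.64 to 21.13 in knockouts, without overlap. None of the 9 lay below the lower quartile on every array. The part of muscle in these readings was not tested.

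Enpp2 (autotaxin) makes lysophosphatidic acid rather than adenosine and was not measured, so its product's receptors and phosphatases were read instead. Of 9 such genes 8 were measured, with differences from -0.74 to 0.43 and a median of -0.03. Plpp3, a phosphatase that degrades this lipid and the brightest of the 8, gave 12.99, 13.12 and 13.66 on the control arrays and 13.05, 12.78 and 11.72 on the knockout arrays, with control 1 below knockout 1. Its difference was -0.74 (SE 0.35, limma adjusted p = 0.424).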

How the data were processed

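RNA of 6 thyroid lobes was measured on an Affymetrix whole-transcript array, from 250 ng of RNA with an integrity number of at least 7, per the labels' protocols. The authors' deposited values are log2 signals of probe sets; the submitters' processing notes name RMA and Affymetrix Expression Console, and the version, settings and genome build are not stated there. That the scale is log2 follows from the range of the values. RMA evens out the arrays, so a change shared by most transcripts is removed, and no detection calls were used.

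Of 22206 probe sets 19572 carried 1 symbol, 2634 none and 0 several, from the platform annotation, updated by gene identifier to RefSeq GRCm38.p6, which all 19572 matched. That table gave names and gene order only. A list gene entered through its brightest probe set, and 161 of 185 list genes were measured (1 by a synonym).

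All probe sets were tested without filtering in limma 3.58.1 (R 4.3.3, lmFit and eBayes, two-sided, Benjamini-Hochberg adjustment over all probe sets, threshold 0.05). Intervals are limma's at 95%. A list's summed level is log2 of the sum of its unlogged values. The same code was tested on simulated data with known changes. Precision is limited by 3 arrays per group. Plots were made in Python 3.11.15 with matplotlib 3.10.9.

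The members and lists were chosen with earlier results of these data known. Genes named were all members, any list gene past the threshold, the brightest gene of each pathway and marker list used here, and others where said; the genes of separated groups, neighbours, Adk, Pnp, Hprt, Slc29a1 and Panx1 were picked after their values were seen. Samples were grouped by title. The replicate numbers were not taken as pairs: deviations of same-numbered arrays correlated at -0.01, 0.08 and 0.02.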

Additional observations from a re-analysis of the deposited data

How the results depend on the processing

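Ada and Enpp3 passed and no other measured member did under array weights, median centring of the arrays, quantile normalization of the deposited values, a variance trend with robust fitting, a filter on dim probe sets, the mean of Y-linked genes as a covariate and a threshold of 0.1. With an ordinary t statistic 0 members and 0 of all probe sets passed, although 2208 probe sets and 2 members had an unadjusted p under 0.05, and Ada was at an adjusted p of 0.392 and Enpp3 at 0.284. Over the 4 arrays with Y-linked signal, an alternative chosen after seeing the data, 0 members (2 at an unadjusted p under 0.05) and 6 probe sets passed. Leaving out each array in turn gave 0 to 2 members and 2 to 43 probe sets, against 75 with all arrays, 118 with the variance trend and 260 at a threshold of 0.1. Among the other pathway genes Ampd1 passed, as the 1 gene, with quantile normalization, the variance trend, array weights, the dim filter and the Y-linked covariate (adjusted p of 0.0419 to 0.0481), and 2 passed at a threshold of 0.1, the second being Slc29a3. Neither Ampd1 nor any other gene of these lists passed with median centring, the replicate block or the ordinary t statistic. The same held over the 4 arrays with Y-linked signal and with any 1 array left out. No member changed sign under any of these settings. With the replicate number as a block 63 probe sets passed, among them Ada (adjusted p = 0.0442) and Enpp3 (0.0476), and the arrays did not each correlate best with their own number. Averaging probe sets was not run for the members, which had 1 each, and the dim filter left no value for Entpd3 and Foxe1.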
